A study of Mus musculus with 4 samples.

Results

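Among leukocytes sorted from subcutaneous KPC tumours, 893 of 23011 filtered cells were macrophages that carried at least 2 of the 5 transcripts Mrc1, Pf4, Ccl8, Retnla and Folr2. Members also had at least 1 UMI of Csf1r, the receptor of the macrophage growth factor CSF1, fewer than 2 UMIs of the dendritic cell gene Cd209a, and no UMI of Cd3e, Cd3d, Cd3g or Cd79a. A UMI, or unique molecular identifier, marks 1 counted RNA molecule. The members were thus chosen by the UMI counts of these genes, so their values below are a description and support nothing. The untreated library held 264 members, the STING agonist library 149, the LTbR agonist library 261 and the library of both agonists, called the combination, 219. The other 7581 cells that met the same Csf1r, Cd209a, Cd3 and Cd79a limits but had at most 1 of the 5 transcripts served as the comparison and are called the other Csf1r+ cells.

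The tumours grew in male C57BL/6 mice from a KPC line of KRASLSL.G12D/+P53LSL.R172H/+Pdx-Cre origin, a pancreatic cancer model whose Cre driver acts in pancreatic epithelium. These alleles belong to the tumour cells, and the leukocytes came from the recipient mice. All 4 groups carried the same tumour. Mice were untreated, or received ADU-S100, a cyclic dinucleotide that activates the interferon-inducing sensor STING, by injection into the tumour, or the antibody 4H8, which activates the lymphotoxin beta receptor (LTbR), into the peritoneum, or both. By the paper's methods ADU-S100 was given only at the start and 4H8 repeatedly over the following days. Tumours were taken on the day of resection, some days after the last dose. Tumours of a group were pooled before live CD45+ cells were sorted, and each group had 1 library, so no difference between groups below has a replicate check. The intervals cover counting error only, and no test was made.

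Macrophages of a tumour come from blood monocytes and, in part, from cells that lived in the tissue before the tumour did. Many tissue-resident macrophages carry the mannose receptor Mrc1 (CD206), the folate receptor Folr2 and, near vessels, Lyve1, and they engulf debris, handle iron and shape matrix. Alternative activation is the programme that interleukin-4 and interleukin-13 set off in macrophages through STAT6. Retnla (RELM alpha), Chil3 (Ym1), Arg1 and Mgl2 are among its usual readouts in the mouse.

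The rule's genes had unequal weight. Mrc1 was detected in 245, 140, 233 and 201 members of the untreated, STING agonist, LTbR agonist and combination libraries, the order used throughout. Pf4, a chemokine of platelets and of some macrophages, was detected in 229, 133, 198 and 168 members. The pair of Mrc1 and Pf4 was present in 79.9%, 84.6%, 65.9% and 69.9% of members. Ccl8, a chemokine that attracts monocytes, was found in 91, 38, 103 and 93 members. Retnla was found in 9, 7, 73 and 72 members, and Folr2 in 23, 18, 22 and 58. In the libraries without the LTbR agonist, members were therefore mainly Mrc1 and Pf4 cells, and Retnla was frequent only in the other 2 libraries. On the mm10 (GRCm38) build, Mrc1 lies on the forward strand at chr2:14229392-14332057, Pf4 at chr5:90772435-90773383, Ccl8 at chr11:82115185-82116799 and Retnla at chr16:48842551-48844461, while Folr2 lies on the reverse strand at chr7:101839988-101857194. All are protein-coding genes.

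**Figure D1:**
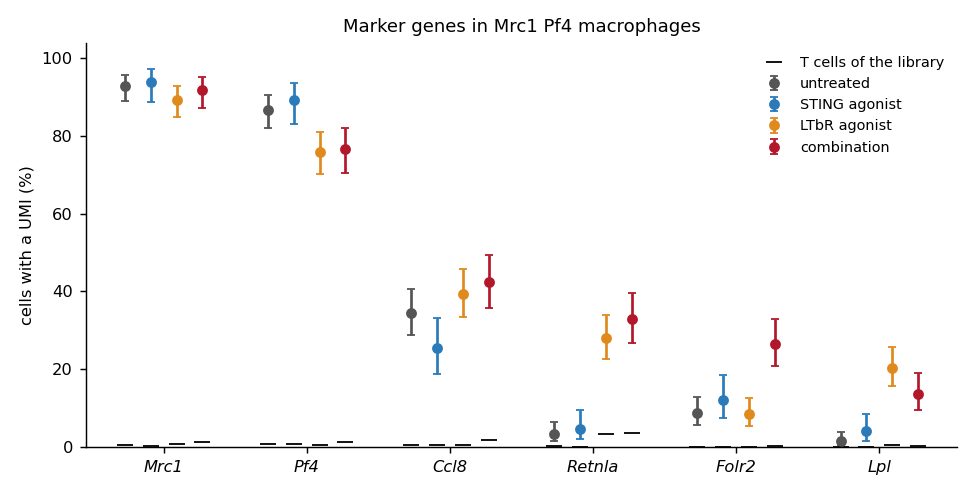
Percent of Mrc1 Pf4 macrophages with a UMI of the 5 genes of the rule and of Lpl in each of the 4 libraries, with exact 95% binomial intervals for counting error. Black dashes give the T cells of the same library. Retnla stands at 28.0% and 32.9% in the libraries with the LTbR agonist against 3.41% and 4.70% without it, and Folr2 at 26.5% in the combination.

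Several markers of resident macrophages were absent from most of these cells, so the name resident-like was not kept. Lyve1 was at 0, 1.52, 0.324 and 26.7 CPM (UMIs per 1000000 UMIs summed over the members of a library), in 0, 1, 1 and 6 members. Timd4, a receptor for dying cells on many resident macrophages, was at 0, 0, 3.89 and 0.445 CPM, and Cd163, the haemoglobin scavenger receptor, at 0, 1.52, 1.30 and 8.45 CPM. Vsig4, a complement receptor, was at 0, 0, 0 and 10.2 CPM, and Cd209f and Cd209g had no UMI in any library. Other genes of the same list were present, and its 22 genes summed to 2566, 3045, 2453 and 2961 CPM. Selenop and Maf of this list were higher than in the other Csf1r+ cells, as given below. Genes usual in tumour macrophages were at high levels. Apoe, an apolipoprotein, was at 7476, 9342, 5668 and 7779 CPM, C1qa, a chain of complement C1q, at 2449, 2836, 2133 and 2901 CPM, and Trem2, a lipid-sensing receptor, at 299, 330, 205 and 268 CPM. The cells are therefore called Mrc1 Pf4 macrophages here.

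Marker genes of other cells were low among the members but not the same in each library. Of the listed genes, the rule itself kept Cd3e, Cd3d, Cd3g and Cd79a at 0 and Cd209a below 2 UMIs a cell. The 9 dendritic cell genes summed to 43.3, 78.8, 46.0 and 67.6 CPM, the 9 neutrophil genes to 75.2, 52.5, 49.0 and 72.9 CPM, and the 10 stromal, endothelial and epithelial genes to 84.0, 82.3, 45.4 and 41.4 CPM. The 12 T and NK cell genes summed to 20.5, 14.6, 13.6 and 63.2 CPM and the 8 B and plasma cell genes to 18.7, 30.8, 19.8 and 70.3 CPM, with the highest sum in the combination. A single cell held 86.2% of the Gzma UMIs there, and Ighm was at 53.4 CPM. The 8 mast cell, basophil and eosinophil genes summed to 0.585, 1.01, 2.27 and 1.33 CPM. Of each of these lists between 1 and 7 genes were at 0 in a library. A doublet score over 0.2 marked 2, 1, 1 and 1 members. Of the barcode sequences of members, 29 were also found in another library, and results without those cells are among the alternatives. The part of these signals in the results was not tested.

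Depth differed between the sets compared. Members had medians of 11957, 13437, 11258 and 9291 UMIs per cell and the other Csf1r+ cells 8980, 10590, 8435 and 8744. Members summed to 3416129, 1979918, 3083952 and 2248446 UMIs. A cell with more UMIs passes a rule on detected genes more readily, and members were the deeper set in each library.

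Members made up nearly the same share of filtered cells in each library before depth was made equal. Members were 3.89% of the untreated cells, with an exact 95% interval from 3.44 to 4.38. They were 3.98% under STING agonist treatment (interval 3.37 to 4.65), 3.65% under LTbR agonist treatment (3.23 to 4.11) and 4.11% under both (3.59 to 4.67). Divided by the untreated share, this gave 1.02 (0.770 to 1.35), then 0.938 (0.737 to 1.19) and last 1.06 (0.820 to 1.36), so that differences within these bounds were not detectable. All Csf1r+ cells within the limits were 42.2%, 37.5%, 36.7% and 29.7% of filtered cells. Among them members were 9.23%, 10.6%, 9.96% and 13.8%, which put the combination at 1.50 times untreated (1.17 to 1.91).

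**Figure D2:**
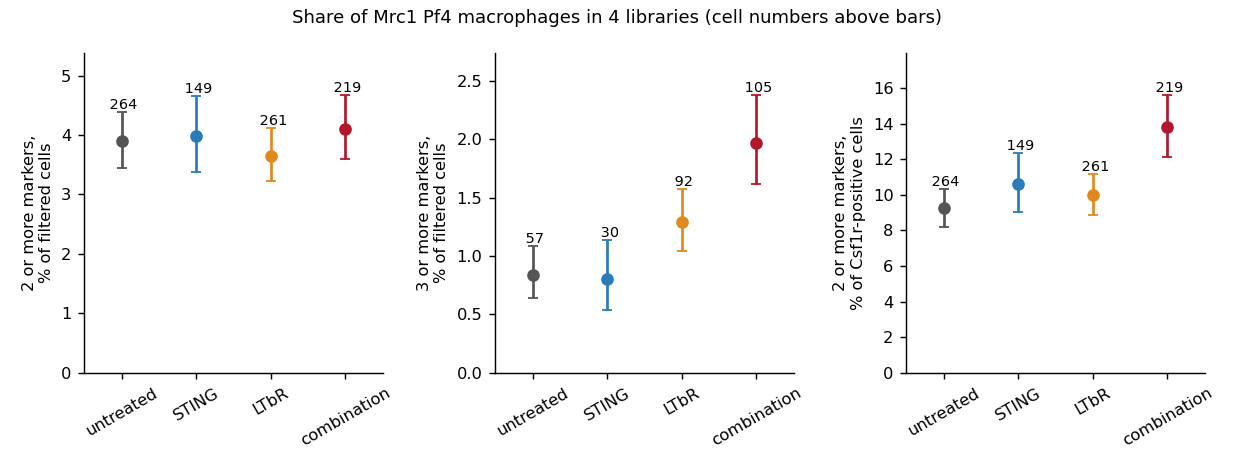
Share of Mrc1 Pf4 macrophages in each of the 4 libraries, in 3 panels: cells with 2 or more of the 5 transcripts as a percent of filtered cells, cells with 3 or more as a percent of filtered cells, and cells with 2 or more as a percent of Csf1r+ cells. Points are 1 library each, bars exact 95% binomial intervals for counting error and numbers above them cells. The shares in the first panel lie between 3.65% and 4.11%, and the combination has the highest share in the others, at 1.97% and 13.8%.

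Cells with more of the 5 transcripts differed between libraries. Members with at least 3 of them numbered 57, 30, 92 and 105, which is 0.840%, 0.800%, 1.29% and 1.97% of filtered cells. The combination stood at 2.34 times untreated by that count (1.48 to 3.73). Within the members these cells were 21.6%, 20.1%, 35.2% and 47.9%. Thinning each cell to 1000 UMIs left 0.288%, 0.274%, 0.495% and 0.989% of cells within the rule. At that depth the combination stood at 3.44 times untreated (1.64 to 7.49), from 51 and 19 cells. T cells, which should lack these transcripts, had at least 2 of them in 2 of 1468, 0 of 1098, 4 of 1800 and 11 of 1796 cells, or 0.136%, 0%, 0.222% and 0.612%. A count of 0 of 1098 allows a share of up to 0.273% by 3 counts and 0.335% by the exact 95% interval.

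Cells just inside and just outside the rule differed in level, and these values are a description of what the rule chose. Cells with exactly 2 of the 5 transcripts had Apoe at 6268, 8843, 3988 and 4982 CPM, and those with exactly 1 at 3235, 4105, 1648 and 1231 CPM. C1qa was at 2169, 2782, 1765 and 1948 CPM inside the edge and at 1504, 1868, 827 and 1021 CPM outside it. Ly6c2, a surface marker of inflammatory monocytes, ran the other way at 245, 213, 350 and 182 CPM inside and 668, 632, 682 and 822 CPM outside. Fcrls, an Fc receptor-like gene known from microglia, was at 17.5, 17.9, 43.1 and 44.4 CPM inside and 3.86, 1.71, 2.34 and 2.31 CPM outside, and Ms4a7 at 410, 348, 158 and 263 CPM inside and 228, 150, 71.8 and 45.0 CPM outside.

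Against the other Csf1r+ cells, Mrc1 Pf4 macrophages combined high complement, apolipoprotein and monocyte-attracting chemokine transcripts with low monocyte transcripts. Each ratio below was taken within a library as log2 of CPM plus 10 and is given as the median over the 4 libraries with their range. Called means at least 2-fold in all 4 libraries among genes with at least 50 UMIs in members or other cells of every library. Of 9089 such genes 46 (0.506%) were higher and 36 (0.396%) lower, and the rule used the same RNA, so these are no test.

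Apoe was 2.55 higher on this scale (2.10 to 3.38), with 1739, 2139, 710 and 741 CPM in the other cells. C1qa was 2.02 higher (1.62 to 2.47), and C1qc, another C1q chain, was at 2110, 2469, 1820 and 2450 CPM against 647, 795, 359 and 447. Ccl7 and Ccl12, chemokines that draw monocytes through CCR2, were 2.69 (1.57 to 3.20) and 2.38 (1.87 to 2.63) higher. Because these genes are close relatives, reads could be shared between them. Mmp13, a collagenase, was at 358, 417, 302 and 306 CPM in members and 54.1, 74.3, 38.2 and 18.3 CPM in the other cells, a median of 2.61 higher (2.34 to 3.48). Cd81, a tetraspanin, was 2.70 higher, Ms4a7 2.05 and the metalloproteinase inhibitor Timp2 1.91 higher. Of 15 measured tumour macrophage genes, 9 were called higher and 13 were above 0 in all 4 libraries, with a list median of 1.52. Pf4 is in both that list and the rule.

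The genes that were low mark circulating monocytes and neutrophils. Ly6c2 was at 258, 209, 291 and 105 CPM in members and 1213, 1072, 927 and 1308 CPM in the other cells, a difference of -2.25 (-3.52 to -1.64). Hp (haptoglobin) was at -2.31 (-2.44 to -1.98), Plac8 at -2.02 (-2.94 to -1.47) and the matrix proteoglycan gene Vcan at -1.74. Of 14 monocyte genes, 7 were called lower and 10 were below 0 in every library, with a median of -1.53. None of 17 type I interferon-stimulated genes was called, but 15 lay below 0 in all 4 libraries, with a median of -0.84. For 18 interferon-gamma response genes, 15 lay below 0 in all 4 and the median was -0.45. Over all 9089 genes the median was 0.02. The share of all genes on the same side of 0 in all 4 libraries is not given here. Such counts of list genes, here and elsewhere in this report, are therefore a description only.

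Genes of tissue-resident macrophages differed less. Of 22 listed, 9 were measured, and 2 were called higher. These were Selenop, a selenium carrier, at 1.79 (1.49 to 2.85) and the transcription factor Maf at 1.40 (1.17 to 2.05). Stab1, a scavenger receptor, was at 1.06 (0.76 to 1.85). Of 12 measured complement genes 4 were called higher, among them C4b at 2.12 (1.26 to 2.77). Trf, which encodes the iron carrier transferrin, was 1.48 higher (1.08 to 1.92) and was the only one of 9 measured iron genes that was called.

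**Figure D3:**
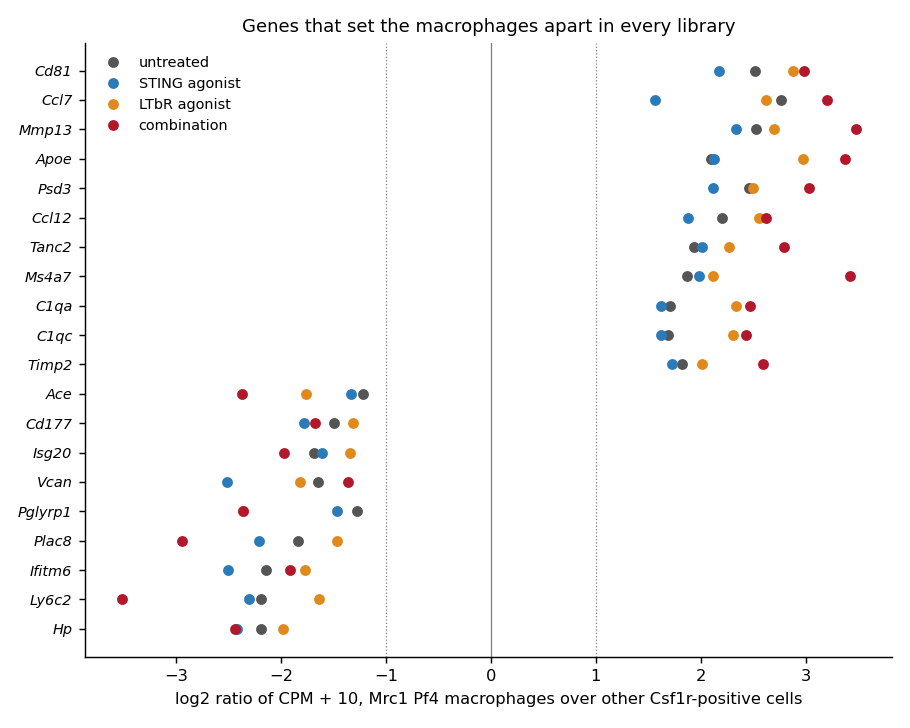
Members against other Csf1r+ cells within each library, as log2 ratios of CPM plus 10, with 1 coloured point per library for genes among the highest and lowest outside the rule, and dotted lines at 2-fold. Apoe lies between 2.10 and 3.38 and Ly6c2 between -3.52 and -1.64, so that all 4 points of each gene fall on the same side of 0.

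The closest cells were macrophages with Trem2 and at least 2 of C1qa, C1qb and C1qc that missed the rule, numbering 707, 367, 312 and 173. Their C1qa and Trem2 helped to define them, and the differences in these were 0.54 and 0.33. Apoe was at 3131, 4263, 1834 and 1811 CPM there, and members were 1.44 higher (1.13 to 2.10). Ccl7 was 2.21 higher in members (1.56 to 2.43), Fcrls 2.14 (1.52 to 2.41), C4b 1.68 (1.28 to 2.57) and Cx3cr1, the fractalkine receptor, 1.70 (1.16 to 1.77). Ly6c2 was lower by a median of -1.67 (-2.21 to -0.71). So Ccl7, Ccl12 at 1.63 (1.33 to 1.93), Fcrls, C4b and Selenop at 1.62 (1.14 to 2.42) set the members off from C1q macrophages by more than 2-fold in each library.

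With the STING agonist alone, few genes of the members differed by 2-fold from untreated. A gene is called higher or lower from here on when its log2 ratio of CPM plus 10 is at least 1 in size, among genes with at least 50 UMIs in 1 of the 2 libraries. A gene low in 1 library passes this minimum only through the other, so list counts and medians below are a description. Of 6601 genes 7 (0.106%) were higher and 4 (0.0606%) lower. Egr1, an immediate early transcription factor, went from 105 to 254 CPM, a log2 ratio of 1.20 (0.94 to 1.46), and the other Csf1r+ cells differed by 1.10. Slpi, a protease inhibitor, went from 55.3 to 211 CPM, but 1 cell held 63.1% of its UMIs, and without the 5% of members richest in it the ratio was 0.14. Klf2, a transcription factor that quiets macrophages and endothelium, went from 30.4 to 76.8 CPM and to a ratio of 1.10 (0.68 to 1.52), which was 0.52 without the richest 5%. Among the lower genes, Ftl1-ps1, a ferritin pseudogene whose reads can come from Ftl1, was at -1.13 (-1.64 to -0.58). The Ccl7 ratio was -0.95 (-1.17 to -0.73) against 0.25 in the other cells, and 0.30 among members with at least 3 of the 5 transcripts.

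None of 16 measured type I interferon-stimulated genes was called with the STING agonist alone, and their median was 0.01. These values are from the day of resection. The paper reported IFN-beta in tumours within hours of ADU-S100, a time that these cells do not cover. Interferon-gamma response genes had a median of 0.15, against 0.44 in the other Csf1r+ cells, and 17 of 18 had the lower ratio in members. Over all measured genes the medians were 0.0007 in members and 0.0031 in the other cells. The share of all genes with the lower ratio in members is not given here. Cxcl9, a T cell-attracting chemokine, was 0.36 higher in members (0.19 to 0.53) and 0.73 higher in the other cells. Tmem173, the gene of STING itself, was at 71.7, 90.9, 74.6 and 68.5 CPM in members and Ltbr at 45.1, 54.5, 44.7 and 48.9 CPM. Both targets of the agonists were therefore detected in the members of all 4 libraries. In a list of receptors and signalling genes, none of 14 measured genes was called in any treated library. That list also held Csf1r of the rule, Il4ra and Csf2ra, which are outside these pathways.

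With the LTbR agonist, Retnla was the leading difference. Retnla was at 89.6, 136, 1329 and 1423 CPM, low without the LTbR agonist and high in both libraries with it. The log2 ratio was 3.75 with the LTbR agonist (3.56 to 3.94) and 3.85 with the combination (3.65 to 4.05), but only 0.55 with the STING agonist (0.24 to 0.86). These comparisons share the untreated library, and Retnla is part of the rule. Its UMIs were unevenly spread: 10 members held 73.8% of them with the LTbR agonist and 76.1% with the combination. A single member held 59.8% in the untreated and 58.4% in the STING agonist library. A Retnla UMI was present in 3.41%, 4.70%, 28.0% and 32.9% of members, and after thinning to 2000 UMIs in 2.30%, 2.70%, 17.3% and 22.2%. T cells, at median depths of 5704, 5853.5, 4950 and 5608.5 UMIs, had one in 0.341%, 0%, 3.39% and 3.67%, a background in cells that should lack it, and the other Csf1r+ cells in 0.116%, 0.238%, 3.05% and 3.22%. At least 10 Retnla UMIs were found in 2, 4, 35 and 31 members and in 0, 0, 5 and 8 of the other cells.

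The sequence upstream of Retnla is shown because this gene is the main readout of the change and a known target of STAT6, and that upstream of Chil3 because it led the combination. Both are 190 bases from RefSeq (GRCm38.p6), 5′ to 3′ on the strand of the gene, and end 61 bases before the RefSeq start site. For Retnla this site lies downstream of the first base of the gene given above, which comes from another annotation. Retnla is at chr16:48842359-48842548 on the forward strand and Chil3 at chr3:106167625-106167814 on the reverse strand. Capitals mark TTC and GAA with 4 bases between them, the spacing typical of STAT6, in Retnla and TTCNNNGAA, the spacing of other STAT factors, in Chil3.
Retnla: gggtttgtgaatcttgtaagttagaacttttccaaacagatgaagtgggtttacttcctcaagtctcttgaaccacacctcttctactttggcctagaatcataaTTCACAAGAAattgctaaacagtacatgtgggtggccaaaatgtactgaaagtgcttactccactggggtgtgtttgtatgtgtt
Chil3: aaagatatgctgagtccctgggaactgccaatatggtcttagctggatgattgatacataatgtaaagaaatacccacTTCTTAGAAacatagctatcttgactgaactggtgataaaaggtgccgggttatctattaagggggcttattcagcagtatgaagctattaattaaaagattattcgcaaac

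The Retnla match began 145 bases before the RefSeq start site of its gene and the Chil3 match 172 bases before that of Chil3. Both strands of 300 bases around each start site were searched. The form with 4 bases between TTC and GAA was in 6.95% of 32851 promoters and TTCNNNGAA in 8.30%. Of 20 alternative activation genes, 14 had a promoter in the table, and the form with 4 bases was found in those of Retnla, Cd36, Ccl17 and Pdcd1lg2 and TTCNNNGAA in those of Chil3, Chil4 and Ccl17. GAGGAA, the core bound by the macrophage factor PU.1, was in 28.3% of all promoters and in 4 of the 5 marker gene promoters in the table, those of Mrc1, Pf4, Ccl8 and Retnla. A match is a run of letters and not a bound site.

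Other genes also differed under the LTbR agonist. Of 6806 genes 42 (0.617%) were called higher and 6 (0.0882%) lower. Of 14 measured alternative activation genes 5 were called higher, with a list median of 0.53 against 0.02 for all genes and 0.30 for the list in the other Csf1r+ cells. Retnla is 1 of the 5 and a gene of the rule, and 46 of the 73 Retnla+ members had only 1 of the other 4 transcripts. Of the other 13 genes 4 were called, and 3 among members without a Retnla UMI, where their median was 0.33. Mgl2, a galactose lectin of the alternative programme, was at 51.5, 38.9, 233 and 220 CPM, and its ratio with the LTbR agonist was 1.98 (1.70 to 2.27) against 0.85 in the other cells. Ccl24, an eosinophil-attracting chemokine, was at 123, 134, 397 and 193 CPM, highest with the LTbR agonist alone, at a ratio of 1.62 (1.41 to 1.83). Ear2, an eosinophil-type ribonuclease with close paralogs, was at 0.878 (3 UMIs), 3.03, 26.9 and 31.1 CPM, a ratio of 1.76 (1.32 to 2.09) that fell to 0.42, below the call, among members without a Retnla UMI. Chil3 was at 18.1, 19.2, 67.1 and 1623 CPM. Arg1, which breaks down arginine and belongs to the same list, was at 2625, 2979, 1975 and 2578 CPM with a ratio of -0.41 (-0.47 to -0.34), so the list did not move as one.

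Lpl, a lipase that frees fatty acids and a marker given for these cells, was found in 4, 6, 53 and 30 members at 2.63, 18.7, 79.8 and 45.4 CPM. The ratio was 2.83 with the LTbR agonist (2.42 to 3.16) and 2.13 with the combination (1.65 to 2.54), where 1 cell held 48.0% of the UMIs. The other Csf1r+ cells had 4.77, 4.06, 18.3 and 10.5 CPM, with ratios of 0.94 and 0.47. In the untreated library Lpl was thus lower in members than in those cells. Among members without a Retnla UMI, Lpl was at 1.79, 3.15, 24.4 and 18.5 CPM, smaller differences that were still called in both libraries. Lyz1, a lysozyme gene whose reads can be confused with Lyz2, went from 11.4 to 170 CPM, and the ratio of 3.07 was 0.48 among members without a Retnla UMI. Vcam1, an adhesion molecule, was at 18.4, 22.2, 101 and 140 CPM, with ratios of 1.97 (1.58 to 2.35) and 2.40 (2.01 to 2.78) in the libraries with the LTbR agonist, and at most 3.76 CPM in the other Csf1r+ cells. Cd226, an adhesion receptor, had no UMI in untreated members and 22.7 CPM with the LTbR agonist, at least 25.8-fold higher against a floor of 3 UMIs over the group. The heat shock genes Hspa1a, at 25.2, 58.6, 160 and 35.6 CPM, and Hspa1b, its near copy, were also called higher, and the other Csf1r+ cells showed ratios of 1.86 and 2.31 as well.

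Ccl5, a chemokine for T cells, was the lowest named gene with the LTbR agonist. It was at 1097, 1502, 174 and 712 CPM in members, a ratio of -2.58 (-2.75 to -2.42), and at -1.97 in the other cells. Ifitm1, an interferon-induced membrane protein, was at 2667, 2289, 1031 and 609 CPM and Ms4a7 at 464, 394, 207 and 342 CPM, with ratios of -1.36 (-1.44 to -1.28) and -1.13 (-1.31 to -0.95). Type I interferon-stimulated genes as a list had a median of 0.18.

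The combination gave the most differences. Of 6688 genes 100 (1.50%) were called higher and 46 (0.688%) lower, and the median of all genes was 0.02. Chil3, a secreted chitinase-like protein, led them. Its level of 1623 CPM compared with 18.1, 19.2 and 67.1 CPM in the other libraries, a ratio to untreated of 5.86 (5.57 to 6.14), while the other Csf1r+ cells went from 96.7 to 239 CPM, a ratio of 1.22. The molecules were unevenly spread over the 66 members with a UMI: 1 cell held 23.8% of them and 10 cells 88.4%. Without the 5% of members richest in Chil3 the ratio was 3.95, and among members without a Retnla UMI it was 3.40. Chil4, its near copy, had 0, 0, 0 and 1.78 CPM.

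Several genes of tissue-resident macrophages were higher in the combination. Of 14 measured, 6 were called higher and none lower, with a median of 0.78, also with Lyve1 at its lower bound, and -0.10 in the other Csf1r+ cells. Cbr2, a carbonyl reductase, was at 0.585 (2 UMIs), 2.53, 4.22 and 47.1 CPM, and its ratio of 2.43 (2.00 to 2.73) was 1.40 among members without a Folr2 UMI. Igf1, a growth factor, was at 7.03, 5.56, 10.1 and 71.6 CPM (ratio 2.26, 1.79 to 2.69). Ltc4s, which makes leukotriene C, was at 9.95, 18.2, 23.3 and 70.7 CPM (2.02, 1.55 to 2.45), with a ratio of 0.56 among members without a Retnla UMI. The ficolin gene Fcna was at 3.51, 30.3, 4.54 and 39.1 CPM, with 1 cell holding 76.7% of its UMIs in the STING agonist library, and its combination ratio of 1.86 was 0.82 among members without a Retnla UMI and 0.54 among those without Folr2. Gas6, a bridge between dying cells and the receptors MERTK and AXL, was at 12.3, 7.07, 27.6 and 44.5 CPM (1.29, 0.80 to 1.76). Lyve1 had no UMI in untreated members and 60 UMIs from 6 cells in the combination, which is at least 30.4-fold higher. All of these 6 cells also carried Folr2 and Retnla. Without Retnla+ members 4 of the 14 genes were called and the median was 0.51, and without Folr2+ members 4 were called and the median was 0.35.

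Folr2 itself was at 14.6, 14.6, 16.5 and 87.2 CPM, and 8.71%, 12.1%, 8.43% and 26.5% of members had a UMI. Its ratio of 1.98 (1.54 to 2.40) comes from a gene of the rule. Mrc1 was at 371, 339, 441 and 830 CPM and Ccl8 at 329, 250, 293 and 669 CPM, again highest in the combination. Pf4 was at 406, 691, 600 and 654 CPM, lowest in the untreated library. Both Retnla and Folr2 were found in 0, 1, 7 and 18 members, which in the combination is 18 of 72 Retnla+ and 18 of 58 Folr2+ members.

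Of 16 measured alternative activation genes 7 were called higher in the combination, with a median of 0.74, and 0.39 in the other Csf1r+ cells. Besides Retnla, Chil3, Mgl2 and Ear2 they were Cd36, a fatty acid and scavenger receptor, at 2.63, 18.2, 12.0 and 37.8 CPM, Pdcd1lg2, the checkpoint ligand PD-L2, at 1.02, and Alox15, a lipoxygenase, with 0 UMIs in untreated members and 66 in the combination. Alox15, Ear2 and Cd36 passed the minimum of 50 UMIs only through the combination. Of the Alox15 UMIs 74.2% came from 1 cell, and the level was at least 33.4-fold higher than untreated by the same floor. Retnla is a gene of the rule, and 37 of the 72 Retnla+ members had only 1 of the other 4 transcripts. All Alox15 UMIs were in Retnla+ members, and the ratio of Ear2 was 0.59 among the 147 others, so both calls were lost there. Of the 15 genes besides Retnla 6 were called among all members, with a median of 0.70, and 4 among those without a Retnla UMI, with a median of 0.40. Klf2 was at 30.4, 76.8, 130 and 236 CPM, and its ratio of 2.60 (2.27 to 2.93) was near the 2.00 of the other Csf1r+ cells. Ccl6, a chemokine of resting macrophages, was at 224, 254, 635 and 782 CPM (1.76, 1.59 to 1.93). C4b, a complement component, was at 46.3, 38.4, 89.8 and 109 CPM (1.08, 0.72 to 1.44).

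**Figure D4:**
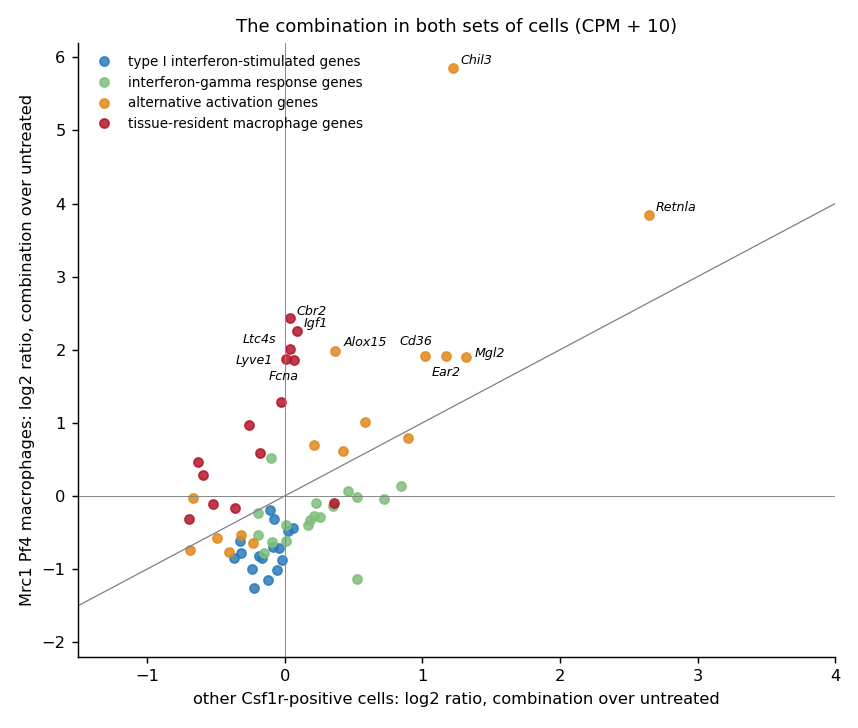
Log2 ratios of CPM plus 10 of the combination to untreated, in Mrc1 Pf4 macrophages (vertical axis) against the other Csf1r+ cells (horizontal axis), with 1 point per measured gene of 4 lists and a diagonal of equal ratios. Chil3 is at 5.86 in members and 1.22 in the other cells, and all 16 type I interferon-stimulated genes lie below the diagonal.

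Interferon-stimulated genes were lower in the combination. All 16 measured type I genes had a ratio below 0, 4 were called lower and the median was -0.80, while the other Csf1r+ cells had a median of -0.11. All 16 had a lower ratio in members than in those cells. Over all measured genes the medians were 0.016 in members and 0.022 in the other cells. The share of all genes with the lower ratio in members is not given here. Isg15, a ubiquitin-like protein, was at 635, 576, 728 and 280 CPM, a ratio of -1.15 (-1.33 to -0.99) against -0.12. Irf7, the main transcription factor of the response, was at 317, 341, 282 and 126 CPM (-1.26, -1.51 to -1.02) and Zbp1, a nucleic acid sensor, at 236, 223, 195 and 112 CPM (-1.01, -1.28 to -0.75). Isg15 was detected in 86.4%, 71.8%, 81.2% and 57.1% of members. Per cell, the type I genes took a median of 24.9, 22.3, 25.2 and 10.6 of 10000 UMIs in members and 37.4, 34.4, 28.1 and 27.3 in the other cells. The median member of the combination was thus lower as well as the sum.

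Some inflammatory and monocyte genes of the members were lower too. Of 12 measured monocyte genes 3 were called lower and 2 higher, with a median of -0.15, and their summed level was 7754, 9629, 8657 and 12736 CPM, highest in the combination, Chil3 included. Of 16 inflammatory genes 2 were called lower and 1 higher, with a median of -0.34. Il1b, the cytokine interleukin-1 beta, was at 3585, 2916, 2631 and 1576 CPM (-1.18, -1.25 to -1.11), against -0.36 in the other cells. Its antagonist Il1rn was at 488, 519, 418 and 238 CPM (-1.01, -1.19 to -0.82), Ly6c2 at -1.22 (-1.48 to -0.96) and Plac8 at -1.33 (-1.49 to -1.17). Cxcl10, a T cell-attracting chemokine, was at 501, 429, 357 and 223 CPM in members and at 863, 1014, 876 and 1245 CPM in the other cells, so that the ratios of -1.13 (-1.32 to -0.94) and 0.52 had opposite signs. Ifitm1 was the lowest named gene at -2.11 (-2.22 to -2.01), with -1.67 in the other cells. Ddit4, a stress-induced brake on mTOR, was at 204, 247, 135 and 48.9 CPM (-1.86, -2.19 to -1.53), with -1.65 in the other cells, and Osm, the cytokine oncostatin M, at -1.37 (-1.58 to -1.17). None of 9 measured MHC class II genes was called and their median was 0.12, with H2-Aa at 5054, 6036, 4474 and 6110 CPM.

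Members with and without a Retnla UMI differed within a library. The split uses a gene of the rule, and cells without Retnla needed at least 2 of the other 4 transcripts, so only genes outside the rule are informative, and only as a description. With the LTbR agonist the 73 Retnla+ members had Lpl in 50.7% of cells against 8.51% of the 188 others, Ear2 in 27.4% against 3.19% and the monocyte chemokine receptor Ccr2 in 83.6% against 56.4%. Apoe was in 65.8% against 97.9%, Trem2 in 35.6% against 81.9% and Ms4a7 in 31.5% against 70.2%. In the combination the 72 Retnla+ members had Chil3 in 48.6% against 21.1% of the 147 others, at 4727 against 274 CPM, Ltc4s in 43.1% against 14.3% and Ms4a7 in 29.2% against 79.6%. Median depth was 8512 against 11834 UMIs with the LTbR agonist and 7283.5 against 10134 in the combination.

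**Figure D5:**
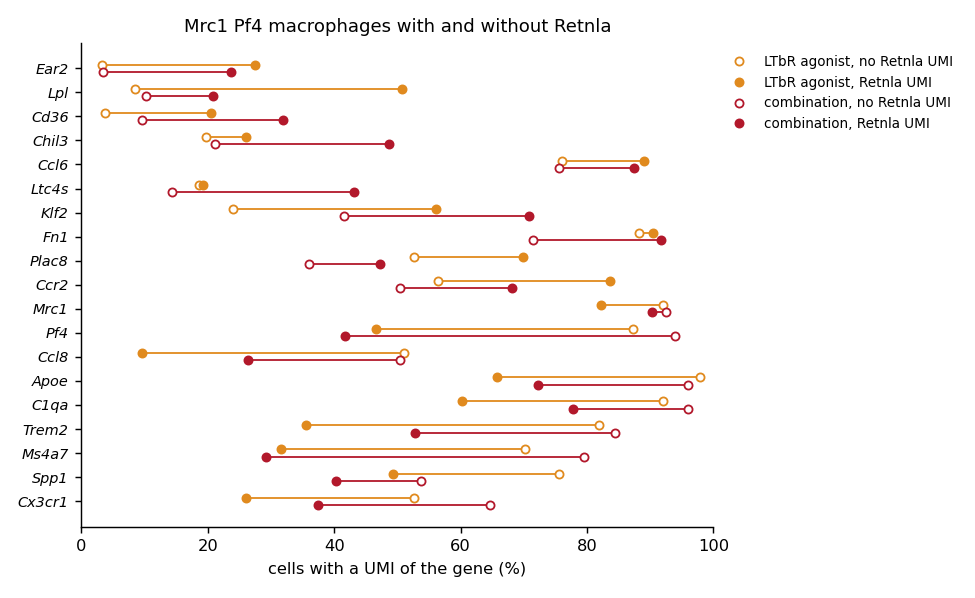
Percent of cells with a UMI of each gene among members with a Retnla UMI (filled points) and without one (open points), in the LTbR agonist and combination libraries, joined by a line for each gene and library. Lpl moves from 8.51% to 50.7% in the LTbR agonist library and Ms4a7 from 79.6% down to 29.2% in the combination.

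Retnla+ members that would have passed on 2 of the other 4 transcripts were nearer to the members without Retnla in some genes and not in others. They numbered 27 with the LTbR agonist and 35 with the combination. Apoe was in 88.9% and 82.9% of them and C1qa in 85.2% and 97.1%. Among the other 46 and 37 Retnla+ members Apoe was in 52.2% and 62.2% and C1qa in 45.7% and 59.5%. Ms4a7 remained less frequent than in members without Retnla, at 48.1% and 48.6%. Klf2 was in 59.3% and 85.7% of them, against 54.3% and 56.8% of the other Retnla+ members and 23.9% and 41.5% of members without Retnla. Chil3 was in 62.9% in the combination, against 35.1% and 21.1%, and Lpl in 55.6% with the LTbR agonist, against 47.8% and 8.51%. In the other of these 2 libraries Chil3 was in 25.9% and Lpl in 8.57%. Among these cells Lpl was thus the more frequent with the LTbR agonist alone and Chil3 with the combination, in a few cells of 1 library each.

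In the combination, the 58 Folr2+ members carried most UMIs of Fcna, Cbr2 and Lyve1, by a split chosen after the values were seen. Fcna was at 111 CPM in them and 8.26 CPM in the other 161, Cbr2 at 117 and 17.2 CPM, Lyve1 at 88.8 and 0 CPM and Ccl7 at 629 and 199 CPM. Chil3 was at 4216 and 510 CPM, while H2-Aa was lower in the Folr2+ members at 3820 against 7093 CPM. The 23 Folr2+ members of untreated tumours also had more Ccl8, at 1607 against 188 CPM, and more Ccl7, at 1222 against 278 CPM, but no Chil3 and no Lyve1 UMI.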

How the data were processed

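Live CD45+ cells of pooled tumours were profiled with 10x Genomics 5′ chemistry in 4 libraries. The deposited UMI counts per gene and cell were made by the authors with Cell Ranger 7.1.0 on mm10, and the libraries, assigned through the numeric barcode suffix that the labels give, held 60770280, 32529174, 56877525 and 42710099 UMIs in 7191, 3955, 7824 and 5869 barcodes. Cells with 300 to 5000 genes and at most 6% mitochondrial UMIs were kept. Of the barcode sequences, 284 occurred in more than 1 library. Doublets were scored with Scrublet in scanpy 1.11.5 and kept in the main values.

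Counts were summed over the members of each library and scaled to CPM. Log2 ratios used a pseudocount of 10 CPM, exact Poisson bounds at 95% taken in opposite directions, a minimum of 50 UMIs in 1 of the 2 libraries and a call at 2-fold. Shares have Clopper-Pearson intervals. TMM factors came from edgeR 4.0.16 in R 4.3.3, and other steps used Python 3.11.15, numpy 2.4.6, scipy 1.17.1, pandas 2.3.3 and matplotlib 3.10.9. Fold recovery was tested on simulated counts. No test between groups was possible with 1 library each. The members and gene lists were chosen with earlier results of these data known. Beside rule and list genes, the text names those among the 10 highest and 10 lowest ratios to untreated in a treated library and the 15 highest and 10 lowest against other Csf1r+ cells, among genes in at least 10% of cells and without mitochondrial, ribosomal, receptor segment, sex-linked and predicted genes. Which of the study's single-cell experiments is held here is not given in the sources used here. Some genes that this rule names are not reported here.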

Additional observations from a re-analysis of the deposited data

Results flagged for a closer look

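For 8 genes of the members, the STING agonist went one way without the LTbR agonist (against untreated) and the other way with it (the combination against the LTbR agonist), by at least 0.5 on the log2 scale each time. With 1 library per group this difference was not tested. The genes were picked by this rule of size, and the share of all genes that pass it is not given here. Fcgrt, the Fc receptor that recycles antibody, was at -0.72 without and 0.65 with the LTbR agonist, and Cx3cr1 at -0.72 and 0.59. Ifit1, an interferon-stimulated gene, was at 0.83 and -0.65, Nos2, the inducible nitric oxide synthase, at 0.56 and -0.80, and Inhba, a subunit of activin, at 0.50 and -1.52. Slpi was at 1.76 and -0.76, with 63.1% of its UMIs in 1 cell of the STING agonist library. The heat shock genes Hspa1a and Hspa1b were at 0.96 and -1.90 and at 0.86 and -1.42.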

How the results depend on the processing

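With 1 library per group no value here has a replicate check, and depth limits shares to the intervals given. No paired analysis was possible because each group had 1 library. Leaving out cells by their UMIs of the gene, of Retnla or of Folr2, or with shared barcodes, was chosen after seeing the data. The share of members with the LTbR agonist against untreated was 1.53 with at least 3 markers and 1.72 after thinning to 1000 UMIs, and that of the combination 2.34 and 3.44, and 1.52 among Csf1r+ cells counted without the limit on Cd209a.

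Counts of genes called moved mainly with the pseudocount and the choice of members. With a pseudocount of 50 CPM, 1 gene was called higher and 0 lower with the STING agonist (7 and 4 in the main count), 12 and 3 with the LTbR agonist (42 and 6), 23 and 13 with the combination (100 and 46), and 21 and 6 against other Csf1r+ cells (46 and 36). With 1 CPM these were 17 and 22, 96 and 22, and 153 and 95 in the treated libraries. Among members with at least 3 markers the STING agonist gave 23 and 27, the LTbR agonist 12 lower, and the combination 64 and 30. The STING agonist gave 11 higher with no UMI minimum, 15 as a mean of CPM per cell, 4 without Retnla as a marker, 4 without the 5% of members richest in the gene and 3 without Retnla+ members. The combination gave 58 higher without Folr2+ members and 88 lower without the richest 5%.

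Of 113 named ratios under treatment 9 changed sign, 7 of them called. Fcna with the STING agonist was at -0.046 without Retnla+ members. Saa3 with the STING agonist was at -2.67 with at least 3 markers and at -0.48 both without Retnla as a marker and without Retnla+ members, and with the combination at -1.40 without Retnla+ and -1.33 without Folr2+ members. Mmp9 with the LTbR agonist was at -0.15 with at least 3 markers and -0.27 without Retnla+ members. In the combination Batf3 was at -0.18 and Gzma at -0.44 with at least 3 markers, and Hspa1b at -0.68 without Retnla+ and -0.18 without Folr2+ members. With at least 3 markers Ccl7 went from -0.95 to 0.30 and Cdk6 from -0.83 to 0.16 with the STING agonist, neither of them called. The cause of these changes was not tested. The count of type I interferon-stimulated genes with a lower ratio in members than in other Csf1r+ cells in the combination was 15 or 16 in every alternative run.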

Other observations

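All 4 measured cell cycle genes were above 0 against the other Csf1r+ cells in every library, with a median of 0.70, and 0 were called higher, so these are values with no call. Mki67, a marker of dividing cells, was at 12.3, 17.7, 28.9 and 39.6 CPM in members of the untreated, STING agonist, LTbR agonist and combination libraries, and Stmn1, a regulator of microtubules, at 13.8, 28.3, 43.5 and 68.0 CPM. Of 6 measured cell cycle genes 3 were called higher in the combination (background 1.50%), with a median of 1.08 against 0.11 in the other Csf1r+ cells. Mki67 and Stmn1 had fewer than 50 UMIs in untreated members and were measured only through the combination. With the STING agonist alone 3 genes of the list were measured. The count and the median are thus partly set by the UMI minimum and support nothing. A UMI of Mki67 or Top2a was present in 15.9%, 12.8%, 17.6% and 20.5% of members and in 8.01%, 7.79%, 7.12% and 7.39% of the other cells. After thinning to 2000 UMIs the shares were 3.07%, 2.70%, 4.33% and 5.91% against 2.01%, 2.38%, 2.14% and 1.61%.

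In the combination, Timp1, an inhibitor of matrix proteases, was at a log2 ratio of 1.69 to untreated in members and -0.55 in the other Csf1r+ cells. S100a8, a calcium-binding protein of neutrophils and monocytes, was at 0.59 and -1.03, and Saa3, an acute phase protein, at 1.97 and -0.90, with 57.8% of its UMIs in 1 member. These differences between the sets of cells were not tested.

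In both libraries with the LTbR agonist most cells rich in Retnla were outside the rule. At least 10 Retnla UMIs were found in 5, 5, 93 and 73 of all filtered cells, of which 2, 4, 35 and 31 were members. The other Csf1r+ cells held 0, 0, 5 and 8 of them, and the rest did not meet the Csf1r, Cd209a, Cd3 and Cd79a limits.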
